A study of Mus musculus with 12 samples.

Results

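The stem and multipotent progenitor regulators described here are 10 genes, Hlf, Gata2, Txnip, Cd34, Flt3, Mecom, Lmo2, Mycn, Sox4 and Erg. They were taken by symbol from a table of raw counts that lists 33924 genes, and all 10 passed the filter on low counts, as did 10604 genes in all. The table holds 12 libraries of RNA from mouse bone marrow progenitors sorted as live cells that lack lineage markers and Sca1 and carry c-Kit. Old het libraries came from old mice of genotype Mx+ Wt1fl/+, whose labels add the word chronic, and old control libraries from old chronic Mx+ Wt1+/+ mice. Young het libraries came from young Mx+ Wt1fl/+ mice labelled acute, and young control libraries from young acute Mx+ Wt1+/+ mice. Each group has 3 libraries. All 4 groups carry Mx+, which the labels do not spell out. Beside floxed alleles the name usually stands for the Mx1-Cre transgene, whose interferon-responsive promoter acts in many tissues beside blood. The labels give neither an inducing treatment nor the age itself, and chronic goes with every old and acute with every young library, so that age and condition cannot be told apart. They do not say whether libraries of a group came from separate animals, and p-values measure the spread between these libraries only.

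Blood stem cells hold their multipotent state through a shared set of transcription factors, while receptors at the surface tie their survival and division to signals from the marrow. As progenitors commit to the granulocyte, monocyte, erythroid or megakaryocyte line, most of these regulators decline, some early, such as Hlf and Mecom, and some late or only in part, such as Lmo2, Gata2 and Cd34. A gate on c-Kit without Sca1 is meant to hold the committed myeloid progenitors and to leave out the stem and multipotent cells that carry both proteins. Levels are given in CPM, counts scaled to a common library total, and each is a value of a bulk library. A lower level there can come from fewer cells of a type or from less RNA per cell, which cannot be told apart.

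Total counts lay between 1264603 and 2303346 in old hets, 2074955 and 9645502 in old controls, 3113183 and 6794892 in young hets, and 645460 and 1600995 in young controls. A single count was worth 0.0916 CPM in the deepest library, old control 1, and 1.70 CPM in the shallowest, young control 2, so the low members were measured coarsely in young controls. The 3 young controls together held 5 counts of Mycn, 25 of Mecom, 26 of Erg, 35 of Hlf and 37 of Flt3. The gate's positive marker Kit was found in every library, between 96.5 and 291 CPM. Mitochondrial rRNA took 1.40% to 4.78% of counts in old hets, 1.70% to 2.38% in old controls, 3% to 3.51% in young hets and 4.35% to 8.22% in young controls. Xist, the RNA of the inactive X chromosome, was above 100 CPM in 5 libraries, which were old het 1, the 3 young hets and young control 3, and the Y-linked Ddx3y was counted in the other 7. Wt1 had 1 to 23 counts per library and was not tested, at 0.802 to 2.63 CPM in old hets, 0.0916 to 0.943 in old controls, 0.601 to 3.92 in young hets and 4.585 to 6.80 in young controls. The labels do not say which part of the gene is floxed, so these 3' tags do not check the genotype. Young control 3 had the lowest median correlation with the other libraries across genes (r = 0.758) and old control 1 the next lowest (r = 0.782). Both are therefore left out in turn wherever a result rests on them.

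One library stood above the rest for every regulator. Old control 1 had the highest level of 10 of 10 members, against a background of 16.1% of all tested genes that were highest in that library. Its level exceeded that of the next highest library 7.83-fold for Hlf, 3.67-fold for Mecom, 3.35-fold for Mycn and 2.45-fold for Sox4, and 1.14-fold for Cd34 at the low end. Old control 1 held 2950 counts of Hlf, 1372 of Mecom and 296 of Mycn, while the other 11 libraries together held 580 of Hlf, 313 of Mecom and 77 of Mycn. The ratio of Mycn is a coarse value, since the next highest library, old het 1, held 10 counts. Set against the mean of old controls 2 and 3, the members were 1.43-fold (Lmo2) to 12.9-fold (Mecom) higher in old control 1.

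**Figure D1:**
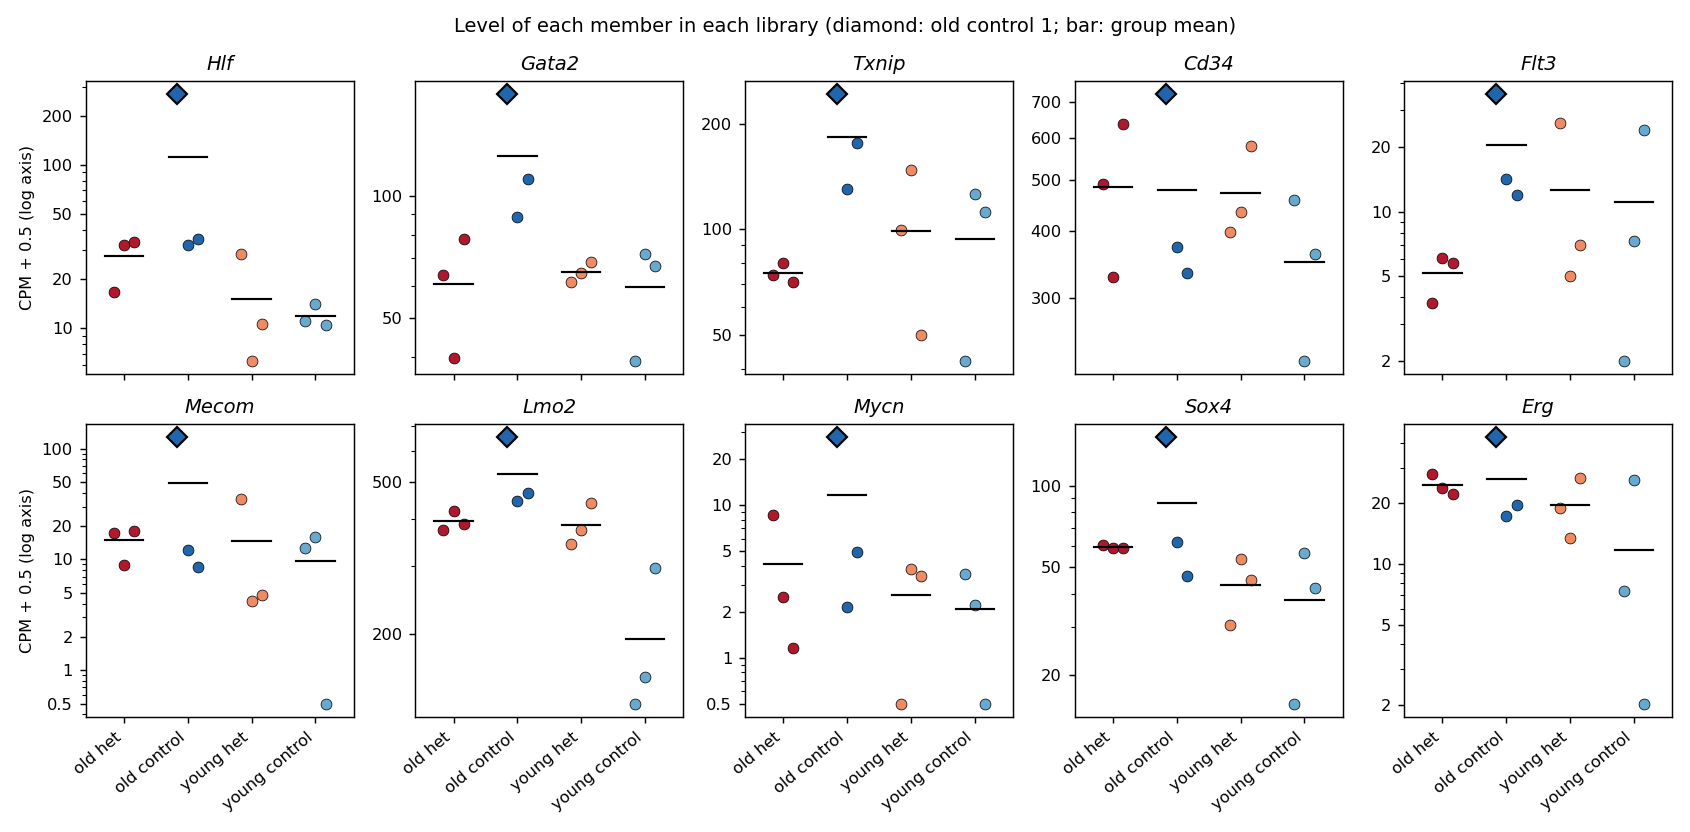
Level of each of the 10 regulators in CPM plus 0.5, on a log axis, in the 12 libraries. Points are libraries, the diamond is old control 1 and bars are group means. Old control 1 is the highest point of every panel, from 27.1 CPM for Mycn to 724 CPM for Cd34, and Lmo2 is the member whose young hets all lie above the young controls.

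Among the transcription factors of the most primitive cells, Hlf had the largest ratio of old control 1 to the next highest library, while Mecom had the largest ratio to old controls 2 and 3. Hlf, a basic leucine zipper factor that marks stem cells and helps keep them quiescent, stood at 16.2, 32.1 and 33.5 CPM in old hets 1 to 3 and at 270.2, 31.8 and 34.5 CPM in old controls 1 to 3. It stood at 27.9, 5.86 and 10.1 CPM in young hets and at 10.6, 13.6 and 9.94 CPM in young controls. Old controls 2 and 3 thus lay at the level of old hets 2 and 3, and every old library was above every young control. Group means ran in the order old control (112 ± 137), old het (27.2 ± 9.61), young het (14.6 ± 11.7) and young control (11.4 ± 1.95; SD, n = 3 each), and neighbours in this order overlapped.

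Mecom encodes EVI1 and MDS1-EVI1, zinc finger factors that stem cells need for their maintenance. It had 17.0, 8.42 and 17.7 CPM in old hets and 126, 11.55 and 7.96 CPM in old controls. In young hets it had 34.3, 3.75 and 4.26 CPM, and in young controls 12.15, 15.3 and 0 CPM. Apart from old control 1 the highest value was young het 1, and the range of every group overlapped that of each other group. Erg, an ETS factor required for stem cell self-renewal, lay between 21.7 and 27.5 CPM in old hets, 16.7 and 41.9 in old controls, 12.9 and 26.3 in young hets, and 1.53 and 25.5 in young controls. The 3 old hets lay close together, and 2 of the 3 young controls were below all other libraries.

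Gata2, a zinc finger factor that sustains stem cells and also drives mast cell and megakaryocyte programmes, was at 63.1, 39.3 and 77.5 CPM in old hets and at 177, 88.2 and 109 CPM in old controls. It was at 60.8, 64.0 and 68.0 CPM in young hets and at 38.7, 71.4 and 66.5 CPM in young controls. All 3 old controls, not old control 1 alone, were above the 9 other libraries. The means were 60.0 ± 19.3 CPM in old het, 125 ± 46.5 in old control, 64.3 ± 3.61 in young het and 58.9 ± 17.6 in young control.

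Lmo2, an adaptor without DNA binding of its own that bridges TAL1 and GATA factors, did not depend on 1 library to the same degree. It stood at 374, 418 and 386 CPM in old hets and at 652, 445 and 467 CPM in old controls. Young hets held 344, 372 and 438 CPM, and young controls held 131, 153 and 296.5 CPM. Every old control was above every old het, and the 3 young controls were the 3 lowest libraries of all. Young control 3, the Xist-positive young control, was the nearest of them to the young hets, which were all Xist-positive. Its sample number in the labels is also next to those of the young hets and apart from those of the other young controls. Among old libraries the Xist-positive old het 1 was the lowest, and the 3 old controls, none of them Xist-positive, were the highest. The part of sex, or of what the sample numbers stand for, in these levels was not tested.

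The surface proteins differed from each other. Cd34, a sialomucin used to mark early progenitors, lay between 328 and 637 CPM in old hets, 334 and 724 in old controls, 399 and 578 in young hets, and 228 and 458 in young controls. Means were 485 ± 155 CPM in old het, 477 ± 215 in old control, 471 ± 95.0 in young het and 349 ± 116 in young control, and all groups overlapped. Flt3, the receptor tyrosine kinase of multipotent and lymphoid-primed progenitors, had 3.235, 5.61 and 5.25 CPM in old hets and 34.9, 13.7 and 11.5 CPM in old controls. It had 25.5, 4.50 and 6.48 CPM in young hets and 1.52, 6.80 and 23.7 CPM in young controls. The old groups did not overlap, whereas the young groups each held 1 library above 20 CPM.

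Txnip binds thioredoxin, restrains glucose uptake and is known to keep stem cells quiescent under oxidative stress. Old hets had 73.6, 79.8 and 70.3 CPM of it and old controls 242, 129.9 and 175.5 CPM. Young hets had 98.8, 147 and 49.6 CPM and young controls 41.8, 126 and 112 CPM. The 3 old hets were tightly grouped below all 3 old controls, and the young groups overlapped.

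Mycn, which drives growth of early progenitors, and Sox4, a factor of immature blood cells, were carried by old control 1 in the same way. Mycn was at 27.1 CPM in that library and at 8.09 CPM or less in the 11 others, with 77 counts in those 11 libraries together and none in young het 1 and young control 3. Sox4 had 58.4 to 59.8 CPM in old hets, 46.0 to 150.5 in old controls, 30.2 to 53.0 in young hets and 15.2 to 56.1 in young controls. The old groups of Sox4 overlapped, since old control 2 stood at 61.5 CPM and old control 3 at 46.0 CPM.

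Promoter windows of 9 members were found in RefSeq (build GRCm38.p6), 13 windows in all, each from 250 bases before to 50 after a start site. Those of Hlf, Gata2 and Txnip are shown because these genes had the lowest unadjusted p-values between the old groups. Gata2 has 2 windows, of which the one with a motif is printed, and capitals mark the motifs found on either strand.
Hlf, chr11:90390868-90391167, minus strand: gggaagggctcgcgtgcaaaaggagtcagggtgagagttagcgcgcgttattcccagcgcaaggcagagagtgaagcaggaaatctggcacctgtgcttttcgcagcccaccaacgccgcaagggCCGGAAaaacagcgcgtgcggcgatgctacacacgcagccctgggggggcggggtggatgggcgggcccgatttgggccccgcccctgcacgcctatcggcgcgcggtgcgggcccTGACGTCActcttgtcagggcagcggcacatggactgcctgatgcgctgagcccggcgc
Gata2, chr6:88198414-88198713, plus strand: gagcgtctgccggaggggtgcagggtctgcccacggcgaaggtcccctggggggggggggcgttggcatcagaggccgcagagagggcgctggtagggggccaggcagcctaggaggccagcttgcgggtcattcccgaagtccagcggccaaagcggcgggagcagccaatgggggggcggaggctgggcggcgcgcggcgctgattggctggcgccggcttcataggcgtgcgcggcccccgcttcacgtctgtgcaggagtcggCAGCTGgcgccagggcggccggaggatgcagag
Txnip, chr3:96557707-96558006, plus strand: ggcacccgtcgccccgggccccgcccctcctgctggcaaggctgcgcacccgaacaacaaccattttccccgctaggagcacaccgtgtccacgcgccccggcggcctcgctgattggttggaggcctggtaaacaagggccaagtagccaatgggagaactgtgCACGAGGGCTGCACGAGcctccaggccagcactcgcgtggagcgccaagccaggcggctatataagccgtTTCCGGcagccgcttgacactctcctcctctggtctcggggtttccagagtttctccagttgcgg
The motifs searched were AGATAA of GATA factors, CCGGAA of ETS factors, CAGCTG of TAL1, TGACGTCA of CREB family factors, and a pair of CACGNG 5 bases apart, the carbohydrate response element. Positions are counted from the start site as 0. The Hlf window held the ETS letters at -125 and TGACGTCA at -9, and the Gata2 window held CAGCTG at 17. The Txnip window held the carbohydrate response pair at -85 and the ETS letters, on the reverse strand, at -15. Over all 32851 RefSeq windows of 300 bases the ETS letters were found in 14.9%, CAGCTG in 16.3%, AGATAA in 11.2%, TGACGTCA in 1.79% and the pair in 0.0487%, which is 16 windows. Of the other members, Sox4 held CAGCTG at -211 and Erg AGATAA at -103 in 1 of its 3 windows, and 8 of the 13 windows held none of the letters searched. The 3 shown windows had no motif in common apart from the ETS letters in Hlf and Txnip.

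Old control 1 also held RNA of Sca1, the protein that the gated cells are meant to lack, and of other stem cell genes. Whether cells outside the gate were present was not tested. Ly6a, which encodes Sca1, had 762 counts (69.8 CPM) in that library, and 6 counts in the other 11 together, with 0 counts in 9 of them. Procr, the stem cell protein EPCR, was at 49.5 CPM in old control 1 and at 4.04 CPM or less elsewhere. The stem cell homeobox factor Meis1 was at 388 CPM against at most 53.4 CPM elsewhere, and the TNF receptor family member Cd27 at 238 against at most 37.3. Of 35 other stem and multipotent progenitor genes, 25 were highest in old control 1, beside 16.1% of all tested genes. That share covers tested genes only, and 27 of the 35 were tested. Some of the others had few counts in this deepest library, such as Fgd5 with 29 in old controls. Hoxb4 went the other way, at 55.2 CPM in old control 1 against a median of 136.9 CPM elsewhere. Procr was named after its values were seen.

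**Figure D2:**
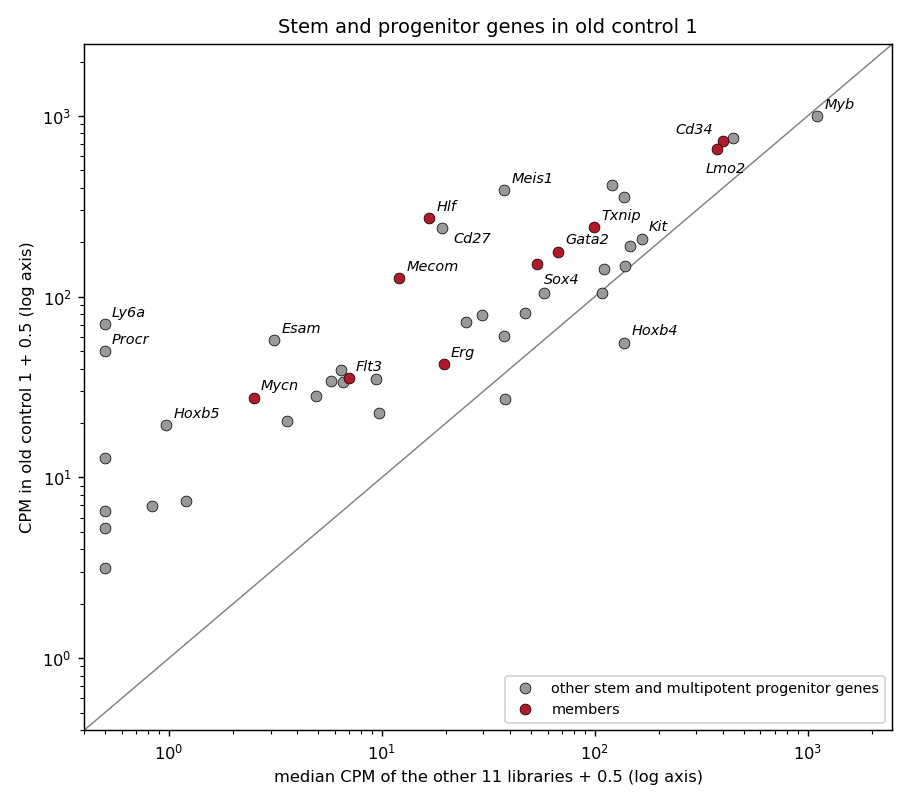
Level in old control 1 (vertical axis) against the median of the other 11 libraries (horizontal axis), both in CPM plus 0.5 on log axes. Red points are the 10 regulators and grey points 35 other stem and multipotent progenitor genes, and the line marks equal levels. All red points lie above the line, and Ly6a and Procr lie at a median of 0 CPM elsewhere.

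Markers of other cells moved with that library as well. The summed level of 9 dendritic cell and MHC class II genes, a list that includes Flt3, was 20.2 to 60.1 CPM in old hets, 60.8 to 705 in old controls, 21 to 55.1 in young hets and 17.5 to 58.1 in young controls, with old control 1 at the top. The sum of 12 lymphoid progenitor and B cell genes was 48.5 to 100.5 CPM in old hets, 39.1 to 427.5 in old controls, 113 to 152 in young hets and 218 to 298 in young controls. Dntt, the DNA polymerase of early lymphoid cells, made up 353 CPM of it in old control 1. Cd79a, a part of the B cell receptor, had 0 counts in every group but young het, which had 2. Cd79b, another part, reached 9.89 CPM in old controls, 5.61 in old hets, 7.96 in young hets and 3.82 in young controls. The sum of 9 T and NK cell genes was 36.4 to 149 CPM in old hets and 90.65 to 162 in old controls, where old control 1 was the highest. It was 48.8 to 120 CPM in young hets and 23.8 to 45.1 in young controls. Cd3e, Cd8a and Klrb1c reached 5.04, 11.5 and 9.34 CPM in old control 1 and at most 0.601 CPM in the other groups. Cd3d was at most 7.05 CPM in old controls and 10.7 CPM in young hets. Megakaryocyte genes summed to 225 to 384 CPM in old hets, 302.5 to 701 in old controls, 160.3 to 369 in young hets and 189 to 246 in young controls. Granulocyte and monocyte progenitor genes summed to 13440 to 21540 CPM in old hets and 9576 to 20090 in old controls, where old control 1 was the lowest, and to 15790 to 17100 in young hets and 7399 to 14770 in young controls. The part of these cells in the members' levels was not tested.

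Between old control and young control, the comparison of age and condition without the floxed allele, 2 members rose. Hlf had a log2 change of 3.33 (SE 0.78, adjusted p = 0.0135) and Lmo2 of 1.43 (SE 0.33, adjusted p = 0.0135), both higher in old control, by edgeR's quasi-likelihood test, and the groups did not overlap for either gene. All 10 members had positive values, with a median of 1.29, beside 0.22 over all tested genes. At an adjusted p under 0.05 the test called 6.98% of all genes in either direction and 2 of 10 members. The values that did not pass were 2.81 for Mycn (SE 1.57), 2.50 for Mecom (SE 1.11, adjusted p = 0.182), 1.34 for Erg, 1.24 for Sox4 (adjusted p = 0.138), 1.10 for Gata2 (SE 0.39, adjusted p = 0.0921), 0.99 for Txnip (adjusted p = 0.169), 0.89 for Flt3 and 0.45 for Cd34. Every old control was above every young control for Hlf, Gata2, Lmo2 and Txnip, 4 of 10 members, where 19% of all genes were.

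Leaving out old control 1 ended both calls, and the call of Hlf rests on 14, 8 and 13 counts in young controls 1 to 3. Without old control 1, Hlf was at 1.57 (SE 0.69, adjusted p = 0.245) and Lmo2 at 1.24 (SE 0.36, adjusted p = 0.0643), no member passed, the members' median was 0.75, and the test called 2.89% of 10883 genes. Mecom then stood at 0.16 and Mycn at 0.92. For Lmo2 the change moved little, and it also lost the call without young control 1 (1.14, adjusted p = 0.0825) or young control 2 (1.196, adjusted p = 0.0802), the libraries with its lowest levels, while without young control 3 it was 1.83 (adjusted p = 0.00223). For Hlf leaving out young control 1 gave 3.21 (adjusted p = 0.0592), a change of nearly the same size. Mitochondrial rRNA and depth separated these groups too, as the ranges above show. Markers of other cell types differed as well. Of 12 erythroid genes 11 had negative values, with a median of -0.78 and none past the threshold, and they summed to 765 to 2335 CPM in old controls and 1833 to 2235 CPM in young controls. Of 8 tested mature neutrophil and macrophage genes 2 fell, with a median of -0.76 and sums of 2227 to 6053 CPM in old controls and 5670 to 12410 CPM in young controls, and Ly6g had 0 counts in both. With all libraries, lymphoid and B cell genes fell in 3 of 8 tested, and MHC class II and dendritic genes rose in 3 of 6. Granulocyte and monocyte progenitor genes rose in 3 and fell in 1 of 13, and basophil and mast cell genes rose in 1 of 5. Without old control 1, 0 of 6 MHC class II and dendritic genes passed, and 2 granulocyte and monocyte progenitor genes rose and 0 fell. The lymphoid, basophil and neutrophil calls stayed at 3, 1 and 2. The part of these cell types in the changes of Hlf and Lmo2 was not tested.

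**Figure D3:**
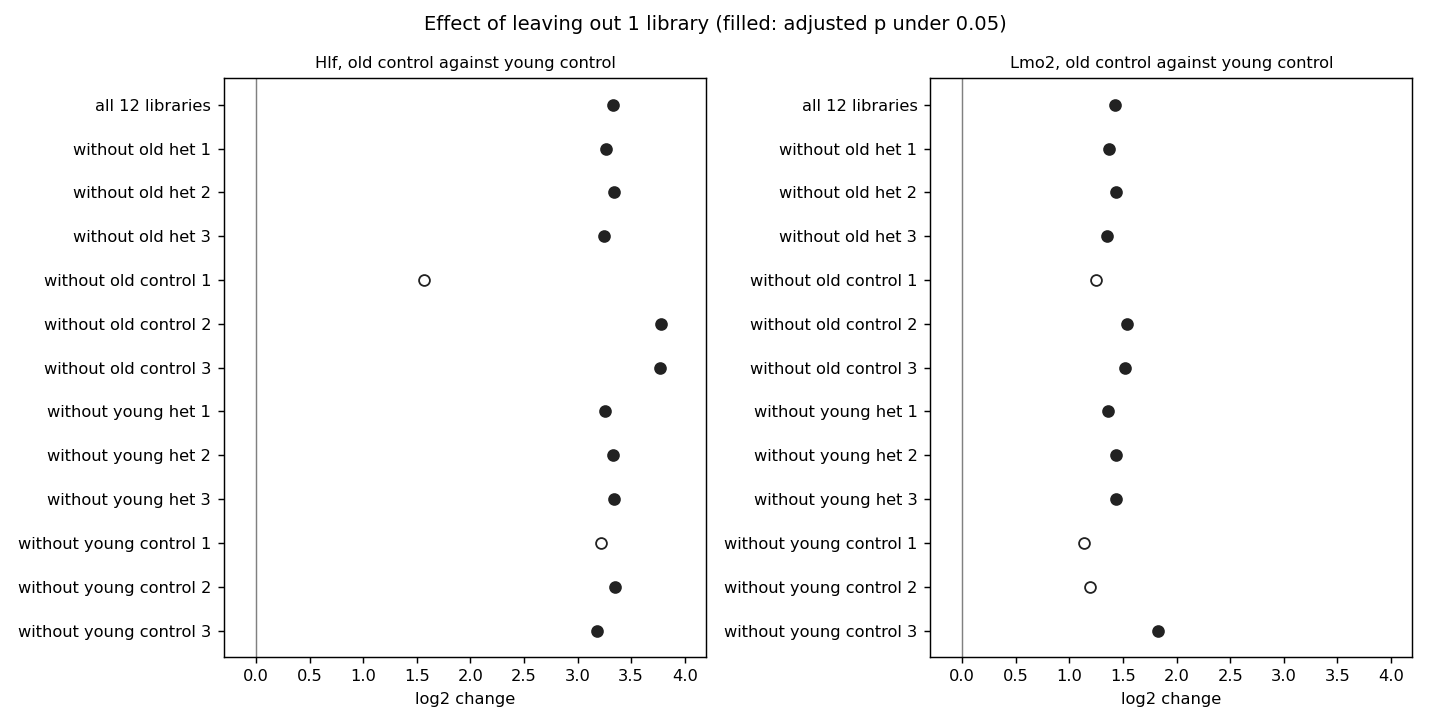
Log2 change of Hlf and Lmo2 in old control against young control with all 12 libraries and with each library left out. Filled points passed an adjusted p of 0.05. Hlf drops to 1.57 without old control 1 and stays between 3.18 and 3.78 otherwise, and Lmo2 stays between 1.14 and 1.83.

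Between old het and old control, 9 of 10 members had negative values and none passed. The median was -1.18, beside -0.05 over all tested genes. Adjusted p was 0.999 for every member, edgeR, DESeq2 and limma-voom each called 0 genes of the table (0% for edgeR), and 380 genes had an unadjusted p under 0.05. Among the members 4 did so by edgeR, 3 by DESeq2, which gave Hlf and Mecom no p-value, and 2 by limma-voom. The 4 were Txnip at -1.29 (SE 0.43, unadjusted p = 0.00662), Hlf at -2.04 (SE 0.70, unadjusted p = 0.00877), Gata2 at -1.07 (SE 0.38, unadjusted p = 0.0116) and Flt3 at -2.08 (SE 0.93, unadjusted p = 0.0373). Mecom was at -1.78 (SE 1.04), Mycn at -1.67 (SE 1.42), Sox4 at -0.55, Lmo2 at -0.41, Erg at -0.11 and Cd34 at 0.02. All 3 old hets were below all 3 old controls for Flt3, Gata2, Lmo2 and Txnip, 4 of 10 members, beside 5.99% of all genes.

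Without old control 1 the members split evenly, 5 positive and 5 negative, with a median of -0.04. Txnip kept most of its size at -1.03 (SE 0.47, unadjusted p = 0.0386), as did Gata2 at -0.72 (SE 0.41, unadjusted p = 0.0953) and Flt3 at -1.40 (SE 1.04, unadjusted p = 0.193). The value of Flt3 rests on 4, 14 and 8 counts in old hets 1 to 3. Hlf moved to -0.28 (SE 0.66), and Mecom (0.54), Erg (0.43), Mycn (0.22) and Sox4 (0.13) turned positive. No adjusted p was below 0.9997 in that fit. Old hets were thus below each of the 3 old controls for Txnip, Gata2 and Flt3, while the negative values of Hlf, Mecom, Mycn and Sox4 rested mostly on old control 1. Against the young groups, Gata2 in old hets (mean 60.0 CPM) lay near young hets (64.3) and young controls (58.9). Txnip in old hets, 70.3 to 79.8 CPM, lay within the ranges of young hets (49.6 to 147) and young controls (41.8 to 126). Lmo2 was also lower in each old het than in each old control, by less, at -0.22 without old control 1.

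**Figure D4:**
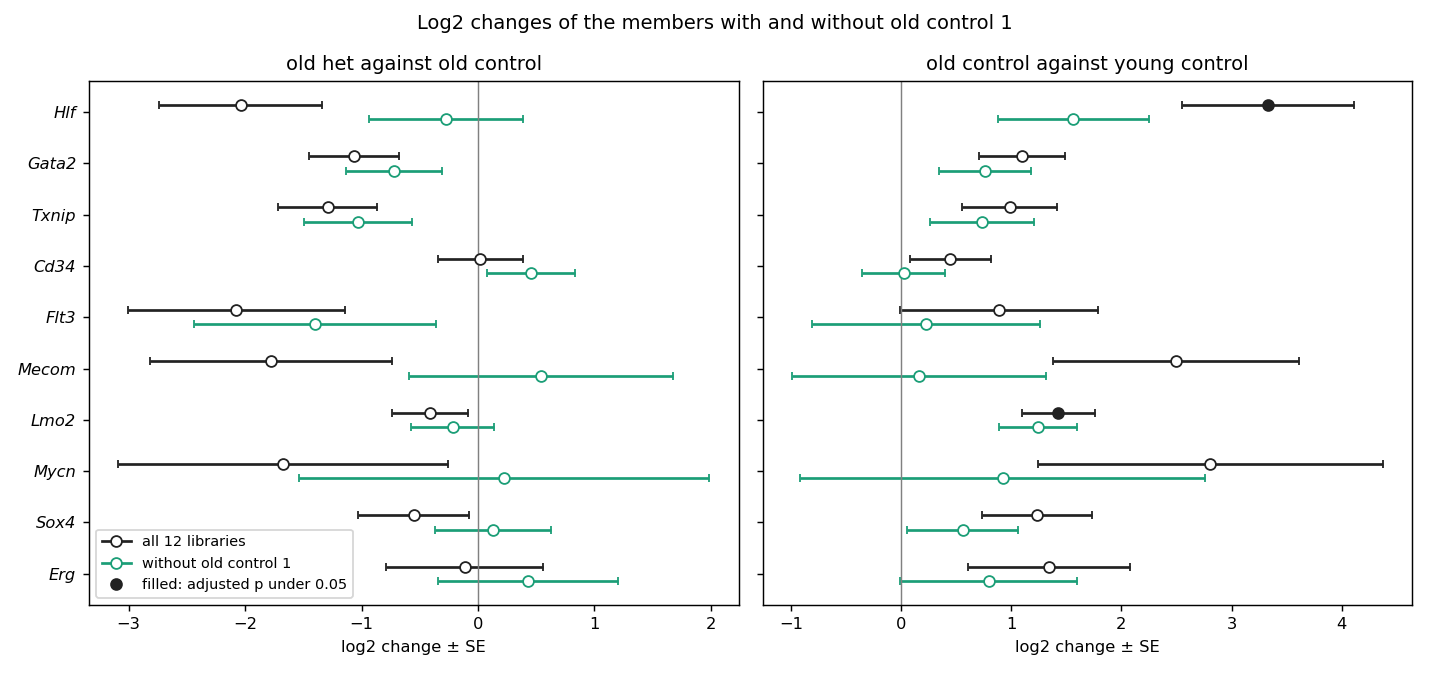
Log2 change ± SE of the 10 regulators in old het against old control (left) and in old control against young control (right), with all 12 libraries in black and without old control 1 in green. Filled points passed an adjusted p of 0.05, which Hlf (3.33) and Lmo2 (1.43) did in the right panel with all libraries. Mecom on the left lies at -1.78 with old control 1 and at 0.54 without it.

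Between young het and young control all 10 members had positive values and none passed. Their median was 0.39, beside 0.08 over all genes, of which 0.424% passed. Lmo2, at 0.99 (SE 0.33, unadjusted p = 0.00709, adjusted p = 0.176), had the lowest p of the members and was the only 1 of 10 with every young het above every young control, as 9.72% of all genes were. It was also the only member with an unadjusted p under 0.05 by edgeR, DESeq2 or limma-voom. The change of Lmo2 passed without young control 3, at 1.45 (adjusted p = 0.0287), and lay between 0.77 and 1.06 without any other library. The remaining values ran from 0.10 for Txnip to 0.90 for Erg, with SEs of 0.36 to 1.54 and adjusted p from 0.626 to 0.962, and 7 of them turned negative when 1 library or another was left out. The groups differed in sex-linked RNA, since 3 young hets and 1 young control were Xist-positive, in depth and in mitochondrial rRNA. Basophil and mast cell genes, 8 in all and 5 tested, summed to 716 to 947 CPM in young hets and 194 to 499.8 CPM in young controls, and 1 of them, Hdc, which makes histamine, rose by 1.94 (adjusted p = 0.0385). Hdc had a mean of 624 CPM in young hets and 161.5 CPM in young controls. Of the 5 tested genes, 3 had positive and 2 negative values. Cpa3 and Ms4a2 had lower means in young hets (11.9 and 7.92 CPM) than in young controls (15.3 and 10.2 CPM). The mast cell protease gene Cma1 had 0 counts in every young control and at most 6.16 CPM in young hets. T and NK cell genes summed to 48.8 to 120 CPM in young hets and 23.8 to 45.1 CPM in young controls, where none of the 3 tested passed. The highest of them was Nkg7, with a mean of 65.3 CPM in young hets and 27.3 CPM in young controls. Cd3e and Cd3g had 0 counts in both groups, while Cd3d had 1.01 to 10.7 CPM in young hets and 4.585 to 10.2 CPM in young controls. The part of all these in the members' values was not tested.

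Between old het and young het no member passed, and 7 of 10 had positive values with a median of 0.04. The table as a whole had 1 gene past the threshold, 0.00943% of those tested, and no member had an unadjusted p under 0.05 by edgeR, DESeq2 or limma-voom. Hlf was at 0.94 (SE 0.70), Mycn at 0.70, Sox4 at 0.46, Txnip at -0.40, Flt3 at -1.33 (SE 0.92) and Lmo2 at 0.03 (SE 0.32). Sox4 was the 1 member of 10 with every old het above every young het, where 7.08% of all genes were (adjusted p = 0.929).

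The difference between the het effects, old minus young, was tested in the same fit. It shares libraries with the comparisons above and is not separate evidence. All 10 members had negative values, with a median of -1.39 beside -0.18 over all genes, and none passed, where 0.0849% of all genes did. Lmo2 was at -1.40 (SE 0.46, unadjusted p = 0.00666, adjusted p = 0.202), Hlf at -2.40 (SE 1.03, adjusted p = 0.324), Txnip at -1.39 (adjusted p = 0.335) and Gata2 at -1.204 (adjusted p = 0.356), the 4 members with an unadjusted p under 0.05 by edgeR, against 3 each by DESeq2 and limma-voom. Here too DESeq2 gave no p-value for Hlf and Mecom. By edgeR Mecom had -2.45 (SE 1.51). For Lmo2 the value passed without young control 3, at -1.825 (adjusted p = 0.0386). Without old control 1 the members' median was -0.55.

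Other stem and multipotent progenitor genes gave a like picture in part. Of 35 genes 27 were tested, and between old control and young control 2 rose and 1 fell by edgeR, 3 of 27 beside 6.98% of all genes, while limma-voom called 1. DESeq2, run without the filter on low counts, called 4 of 35, of which 5 had no p-value. Cd27 was higher by 2.79 (adjusted p = 0.0169) and Meis1 by 2.17 (adjusted p = 0.0452), while Zfpm1, the GATA partner FOG1 of the erythroid and megakaryocyte lines, fell by 1.92 (adjusted p = 0.0134). Without old control 1, Cd27 was at 1.01 (adjusted p = 0.362) and Meis1 at 0.23 (adjusted p = 0.850), and Zfpm1 at -2.52 (adjusted p = 0.0102). Zfpm1 stood at 69.7 to 148 CPM in old hets, 50.2 to 190 in old controls, 106 to 240 in young hets and 280.5 to 522 in young controls. Between old het and old control none of the 27 passed by edgeR, DESeq2 or limma-voom, 3 had an unadjusted p under 0.05 with edgeR, and the median was -0.52 with 6 positive and 21 negative values. Meis1 was at -1.69, Cd27 at -1.68, Bmi1, a Polycomb protein of self-renewal, at -1.03 and the homeobox gene Hoxb4 at 0.89, and the median was 0.18 without old control 1. In the young comparison none passed with edgeR or limma-voom and 1 with DESeq2, 13 were positive and 14 negative, and the median was -0.03. Zfpm1 (-1.40, adjusted p = 0.155), the TAL1 relative Lyl1 (1.34, adjusted p = 0.251) and the homeobox gene Hoxa9 (1.06, adjusted p = 0.317) had unadjusted p-values under 0.05.

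The factors that act with LMO2, GATA2 and ERG on shared enhancers, a set of 7 with Tal1, Lyl1, Runx1 and Fli1, were all tested. Lmo2 alone passed, in old control against young control, where the median of the 7 was 1.33 and Fli1, an ETS factor, was at 1.33 (adjusted p = 0.0850) and Lyl1 at 1.42 (adjusted p = 0.110). Old het against old control gave a median of -0.41, and the young comparison 0.29. Of 9 partners of the LMO2 complex 1 passed by edgeR, the corepressor Cbfa2t3, higher in old control than in young control by 1.38 (adjusted p = 0.0478), where DESeq2 called 2 and limma-voom 0 of the 9. It had 76.2 to 163 CPM in old hets, 121 to 351 in old controls, 71.2 to 95.1 in young hets and 61.5 to 108.5 in young controls, and was at 0.79 (adjusted p = 0.315) without old control 1.

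Among 9 tested genes of the MYC network, in which MAX pairs with MYC and MYCN, none passed with edgeR in any comparison, and 1 to 4 had an unadjusted p under 0.05. With DESeq2, run without the filter, 1 of 10 passed in the difference of effects. Max itself was at -0.97 in old het against old control (unadjusted p = 0.0108), with 51.9 to 119 CPM in old hets and 145 to 169.6 CPM in old controls. Of 11 thioredoxin and TXNIP partner genes, 1 passed by edgeR in old control against young control, as by DESeq2 and limma-voom, and DESeq2 also called 1 in the difference of effects. By edgeR it was Prdx1, a peroxidase that thioredoxin recharges, at 1.56 (adjusted p = 0.0165), and it was at 1.71 (adjusted p = 0.0295) without old control 1. It had 153 to 401 CPM in old hets, 311 to 455 in old controls, 145 to 297 in young hets and 126 to 141 in young controls, so that every library of the young controls was below all others. Txn1, the cytosolic thioredoxin that TXNIP binds, was at -1.18 in old het against old control (unadjusted p = 0.00724, adjusted p = 0.999), with 114 to 228.5 CPM in old hets and 292 to 379 CPM in old controls, and at 1.14 in old control against young control (adjusted p = 0.0874). Its levels, like those of Txnip, were lower in each old het than in each old control, and at -1.11 (unadjusted p = 0.0199) its change was nearly as large without old control 1.

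Over the 12 libraries the members followed each other loosely. Across the 45 pairs, Pearson's r of log2 CPM ran from -0.14 to 0.78 with a median of 0.46, and from -0.70 to 0.75 with a median of 0.17 without old control 1, points that share library depth and the high library. Mecom and Erg were the closest pair, at 0.78 over 12 libraries and 0.75 over 11, and Gata2 and Txnip came next at 0.76 and 0.63. Outside the lists, the tested genes most like Hlf by the same measure were Deptor (0.96, and 0.90 without old control 1), Fam171a2 (0.93 and 0.89), Psmb8 (0.93 and 0.80), Ndrg1 (0.93 and 0.81) and Nckap1l (0.90 and 0.78). Deptor, an inhibitor of mTOR, had 123 CPM in old control 1 and at most 46.0 CPM elsewhere. Those most like Gata2 were Ece1 (0.90 and 0.80), F2r (0.85 and 0.73), Pik3ca (0.83 and 0.66), Apc (0.83 and 0.80) and 1110003E01Rik (0.80 and 0.76). All 10 of these genes were highest in old control 1. Their choice by likeness over the 12 libraries favours this, since Hlf and Gata2 were both highest there, so it is not separate evidence.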

How the data were processed

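RNA of 12 libraries was read from 3' ends (Lexogen kit, per the labels' protocols). The authors deposited 1 table of raw counts per gene symbol. STAR 2.4, HTSeq 0.6.1, DESeq2 and mm9 are named, per the submitters' processing notes, without roles. No source used here gives the annotation, strand or molecular identifiers, so overlapping and antisense genes cannot be told apart and floors cover counting error only.

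The quasi-likelihood F test of edgeR 4.0.16 (R 4.3.3) was applied after TMM scaling, with all 4 groups in 1 fit (biological coefficient of variation 0.535). The filterByExpr minimum was 10 counts, and 15 in total. P-values were adjusted by Benjamini-Hochberg over 10604 genes at 0.05. The SE is the absolute log2 change over the square root of F, and CPM use TMM-scaled totals of tested genes. Groups did not overlap where every library of one was above every library of the other. Correlations used log2 CPM with a prior count of 2. The steps were tested on simulated data.

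Members and lists were chosen with earlier results of these data known. All members are named, and of other lists the genes past the threshold or with the lowest p-values. Alternatives were DESeq2 1.42.0, its size factors, limma-voom (limma 3.58.1), no filter, thinning to 645460 counts, the compared groups alone and leaving out each library. Leaving out old control 1 and young control 3 together was added after seeing the data.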

Additional observations from a re-analysis of the deposited data

How the results depend on the processing

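Of the members' log2 changes under the alternatives, 849 kept their direction and side of the threshold, 53 turned sign, 10 lost and 4 gained a call. Called at least once between old control and young control were Hlf, which passed in 13 of 18 alternatives, Lmo2, which passed in 14 of 19 (adjusted p from 0.00140 to 0.0825), and Mecom, which passed in 1. Hlf did not pass with limma-voom (adjusted p = 0.217), after thinning (0.102), without old control 1 (0.245), without young control 1 (0.0592) or without old control 1 and young control 3 together (0.294). DESeq2 gave Hlf and Mecom no p-value. Other scaling moved the median change of all genes by at most 0.08. Between old control and young control Lmo2 lost the call after thinning (adjusted p = 0.0712), with the compared groups alone (0.0543) and without old control 1, young control 1 or young control 2 (0.0643, 0.0825 and 0.0802). In the young comparison it passed without young control 3 and without both libraries (adjusted p = 0.0202). The cause of these shifts was not tested. Low counts limit Mycn, Mecom, Erg and Hlf, above all in young controls. They limit Flt3 above all in old hets, with 26 counts, beside 37 in young controls. No paired analysis was possible because the groups share no replicate numbers in the labels.

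In the young comparison 45 genes passed, against 356 with DESeq2, 23 with limma-voom, 258 without a filter, 6 after thinning, 13 with the compared groups alone, 241 without both libraries, and 1 to 157 leaving out 1 library, the highest without young control 3. In the old comparison 0 passed, against 11 without a filter and 0 to 1 leaving out 1 library. Between old control and young control 740 passed, against 1321 with DESeq2, 223 after thinning, 463 without both libraries, and 315 to 886 leaving out 1 library, with 315, 335, 394, 432 and 472 without old controls 1, 2 and 3 and young controls 1 and 2. Between old het and young het 1 passed, against 25 with DESeq2, 22 without a filter, 0 after thinning, 2 with the compared groups alone, 8 without both libraries and 0 to 7 leaving out 1 library. In the difference of effects 9 passed, against 284 with DESeq2, 2 with limma-voom, 216 without a filter, 1 after thinning, 59 without both libraries and 2 to 294 leaving out 1 library, and the compared groups alone could not be fitted.

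Values that turned sign were, in the young comparison, Hlf with limma-voom (-0.18), after thinning Hlf (-0.18), Txnip (-0.44), Sox4 (-0.37) and Erg (-0.49), and without both libraries Mycn (-0.20). In the old comparison they were Erg after thinning (0.21) and, without both libraries, Mecom (0.54), Mycn (0.22), Sox4 (0.13) and Erg (0.43). Mecom between old control and young control was at -0.46 without both libraries. Between old het and young het they were Txnip after thinning (0.082), Cd34 with limma-voom (-0.0059) and Lmo2 without a filter (-0.0031). In the difference they were, without both libraries, Cd34 (0.00031), Mecom (0.51), Mycn (0.42) and Erg (0.094), and after thinning Sox4 (0.36) and Erg (0.70).

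Leaving out 1 library gave ranges that crossed 0. In the young comparison these were -0.50 to 0.75 for Hlf, -0.093 to 0.27 for Gata2, -0.31 to 0.43 for Txnip, -0.99 to 1.70 for Flt3, -1.10 to 1.15 for Mecom, -0.21 to 1.70 for Mycn and -0.17 to 0.58 for Sox4. In the old comparison they were -0.18 to 0.45 for Cd34, -2.27 to 0.54 for Mecom, -2.97 to 0.22 for Mycn, -0.85 to 0.13 for Sox4 and -0.34 to 0.43 for Erg. Between old het and young het they were -0.36 to 0.13 for Gata2, -0.72 to 0.017 for Txnip, -0.22 to 0.26 for Cd34, -0.41 to 1.80 for Mecom, -0.071 to 0.14 for Lmo2 and -0.66 to 1.198 for Mycn, and in the difference -0.62 to 0.022 for Cd34.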
